A study of Mus musculus with 2 samples.

Results

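The V1 sector is the soluble part of the vacuolar proton pump (V-ATPase), and its transcripts were examined through the 8 genes that encode its subunits A to H outside specialised epithelia and germ cells: Atp6v1a, Atp6v1b2, Atp6v1c1, Atp6v1d, Atp6v1e1, Atp6v1f, Atp6v1g1 and Atp6v1h. The genes were chosen by name and not by level, but with earlier results of these data known. All 8 were found among the 31920 gene rows of the expression table. The series title describes heart muscle disease from loss of LAMP2, a glycoprotein of the lysosomal membrane, and of impaired autophagy. Polyadenylated RNA came from the cardiac left ventricle of 1 male mouse labelled Lamp2 knockout and 1 male wildtype mouse, both of strain 129-SvEv and aged 10 weeks. The labels name neither the allele nor the promoter or cells in which the gene is lost. With 1 library per group there is no replicate check, so the genotypes were not tested and the 95% intervals below cover counting error in the reads of these libraries only.

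The V-ATPase is a rotary motor. In the cytosolic V1 sector, a ring of alternating A and B subunits hydrolyses ATP and turns a central rotor, which drives protons through the membrane-bound V0 sector into the lumen of lysosomes and endosomes. Acid lysosomes are needed to break down what autophagy delivers, in heart muscle as elsewhere, and cells tune the pump by detaching V1 from V0 and reattaching it.

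The library labelled Lamp2 knockout held 8773820 reads assigned to genes and the wildtype library 8410593. Lamp2 itself had 986 reads in the knockout-labelled library and 990 in the wildtype, or 112 against 118 reads per 1000000 assigned reads (RPM), a ratio of 0.955 (0.873 to 1.04). Under the other 3 scalings described below it was 0.880 (0.805 to 0.963), 0.879 (0.804 to 0.961) and 0.841 (0.769 to 0.919), each below 1 beyond counting error. A count over the whole row cannot check an allele whose remaining transcript persists, so each direction below refers to the library as labelled. Both libraries carried the markers of ventricular muscle, with Myl2 at 8322 against 8818 RPM, while the atrial light chain Myl7 stood at 0.456 against 2.26 RPM. Mitochondrially encoded rows held 16.2% of the knockout-labelled reads and 26.5% of the wildtype reads. RPM is a share of the total, so the ratio of every other gene moves with that difference, and ratios under 3 other scalings are given where they matter. Those scalings lower log2 ratios by 0.12 (median ratio), 0.12 (trimmed mean of log ratios) and 0.18 (total without mitochondrial rows and the 10 most abundant genes).

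Transcripts of 7 of the 8 V1 subunits were higher in the knockout-labelled ventricle, where 61.2% of all measured genes had a log2 ratio above 0. Of the 7, 6 were higher by 1.27-fold to 1.73-fold, and the gene of the B subunit, Atp6v1b2, stood out at 2.38-fold. The gene of the catalytic A subunit, Atp6v1a, was the exception at a ratio of 0.914 (0.667 to 1.25). It had few reads, and whether its row counts the whole transcript could not be checked. Summed over all 8 members, V1 transcripts reached 640 RPM in the knockout-labelled library against 418 RPM in the wildtype, a ratio of 1.53 (1.47 to 1.60). In bulk tissue, more or fewer cells of a type and more or less RNA per cell cannot be told apart. All 8 members passed the minimum of 5 RPM in the higher library that defined a measured gene. The plot of V1 transcript levels shows each member in both libraries.

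**Figure D1:**
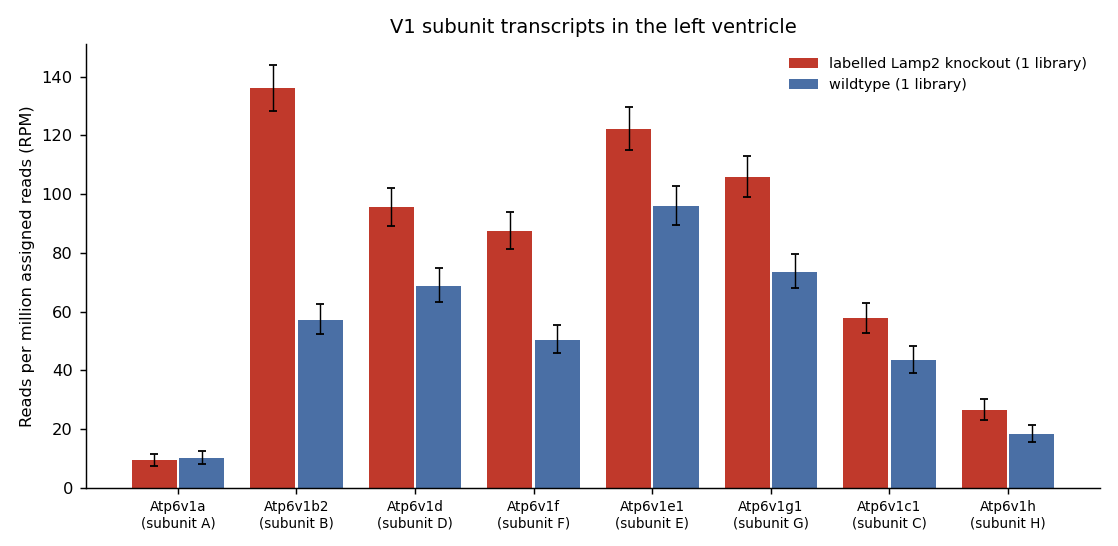
Reads per 1000000 assigned reads (vertical axis) of the 8 V1 genes, grouped by subunit, in the knockout-labelled library (red) and the wildtype library (blue); bars are single libraries and whiskers are exact Poisson 95% counting intervals. Heights compare the libraries for 1 gene and not genes with each other, since transcripts differ in length; Atp6v1b2 shows the widest gap, at 136 against 57.2 RPM, and Atp6v1a none beyond its whiskers.

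The ring of the motor is built from A and B subunits. Atp6v1a encodes subunit A, which hydrolyses ATP, and lies on the minus strand of chromosome 16 from 44085404 to 44139019 in mm10. It had 82 reads in the knockout-labelled library and 86 in the wildtype, or 9.35 against 10.2 RPM, and its ratio of 0.914 (0.667 to 1.25) included 1. It had the fewest reads of all members, so its interval is the widest relative to its ratio and allows both a lower and a somewhat higher level. Whether the row counts the whole transcript could not be checked, so these reads may stand for only part of the transcript. A further row on the same strand lies within the Atp6v1a row, a cDNA clone of 1382 bp with 7 reads in the knockout-labelled library and 0 in the wildtype.

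Atp6v1b2 encodes the B2 isoform of subunit B, which binds nucleotide without being the catalytic subunit and is the B isoform of most tissues. The gene occupies chromosome 8 from 69088736 to 69113717 on the plus strand. It had 1193 reads against 481, or 136 RPM in the knockout-labelled library and 57.2 RPM in the wildtype, a ratio of 2.38 (2.14 to 2.65). It was the only member at or beyond 2-fold, and it stayed beyond 2-fold under the other scalings, at ratios of 2.19, 2.19 and 2.09. Among all 10209 measured genes its log2 ratio was the 195th from the top, at percentile 98.1. The counting interval reached below 2 under these 3 scalings, to 1.97, 1.97 and 1.88. Rows on the opposite strand overlap both ends of the gene: Slc18a1, a vesicular amine transporter gene, over 487 bp with 12 against 4 reads, and a cDNA clone over 292 bp with 84 against 47 reads. Whether strand was used in counting is not given, and without it reads in these stretches cannot be told apart, although both rows together hold far fewer reads than Atp6v1b2.

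The balance of reads between the partners in the ring differed between the libraries, a comparison that does not depend on the scaling. Transcripts differ in length, so only the difference between the libraries is read here. There were 14.5 reads of Atp6v1b2 for each read of Atp6v1a in the knockout-labelled library and 5.59 in the wildtype, and the first value was 2.60 times the second (1.89 to 3.58).

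The central rotor consists of subunits D and F. Atp6v1d, on chromosome 12 from 78842982 to 78861638, encodes the shaft of the rotor. It had 838 reads in the knockout-labelled library and 579 in the wildtype, or 95.5 against 68.8 RPM, a ratio of 1.39 (1.25 to 1.55). Atp6v1f, on chromosome 6 from 29467783 to 29470509, encodes the small subunit that binds the shaft. It had 767 against 424 reads, or 87.4 RPM in the knockout-labelled library and 50.4 RPM in the wildtype, a ratio of 1.73 (1.54 to 1.96), the largest after Atp6v1b2. Its log2 ratio stood at percentile 93.3 of measured genes, and its ratio was 1.60, 1.60 and 1.53 under the other scalings. The rotor genes moved apart beyond counting error, with 0.915 Atp6v1f reads per Atp6v1d read in the knockout-labelled library and 0.732 in the wildtype, a ratio of 1.25 (1.07 to 1.47).

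Subunits E and G pair to form the peripheral stalks that hold the ring still while the rotor turns. Atp6v1e1, on chromosome 6 from 120795244 to 120822685, had 1072 reads in the knockout-labelled library and 806 in the wildtype. Its level was 122 against 95.8 RPM, a ratio of 1.27 (1.16 to 1.40), the smallest among the 7 higher members. Atp6v1g1, on chromosome 4 from 63544765 to 63550701, had 928 against 619 reads, or 106 RPM in the knockout-labelled library and 73.6 RPM in the wildtype, a ratio of 1.44 (1.30 to 1.59). The difference between these partners was within counting error, with 1.16 Atp6v1e1 reads per Atp6v1g1 read in the knockout-labelled library and 1.30 in the wildtype, a ratio of 0.887 (0.774 to 1.02). GENCODE M21 holds 4 processed pseudogenes that match the Atp6v1g1 transcript at 90% identity or more over at least 200 bp, the closest at 99.4% over 357 bp. Atp6v1f has 1 such match, at 98.5% over 202 bp, Atp6v1a 1 at 90.2% over 296 bp, and the other members none. None of these pseudogenes has a row under that name in the table, and the handling of reads that match several places is not given, so the levels of these 3 genes are uncertain to that extent.

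Subunits C and H connect the stalks to the membrane sector. Subunit C, which leaves the complex when V1 detaches, is encoded by Atp6v1c1 on chromosome 15 from 38661904 to 38692444. It had 506 reads in the knockout-labelled library and 366 in the wildtype, or 57.7 against 43.5 RPM, a ratio of 1.33 (1.16 to 1.52). Atp6v1h, on chromosome 1 from 5083173 to 5162549, encodes the subunit that, in yeast, keeps detached V1 from hydrolysing ATP. It had 232 against 154 reads, or 26.4 RPM in the knockout-labelled library and 18.3 RPM in the wildtype, a ratio of 1.44 (1.17 to 1.78). The number of Atp6v1c1 reads per Atp6v1h read was 2.18 in the knockout-labelled library and 2.38 in the wildtype, a ratio of 0.918 (0.719 to 1.17), so these genes did not part beyond counting error.

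**Figure D2:**
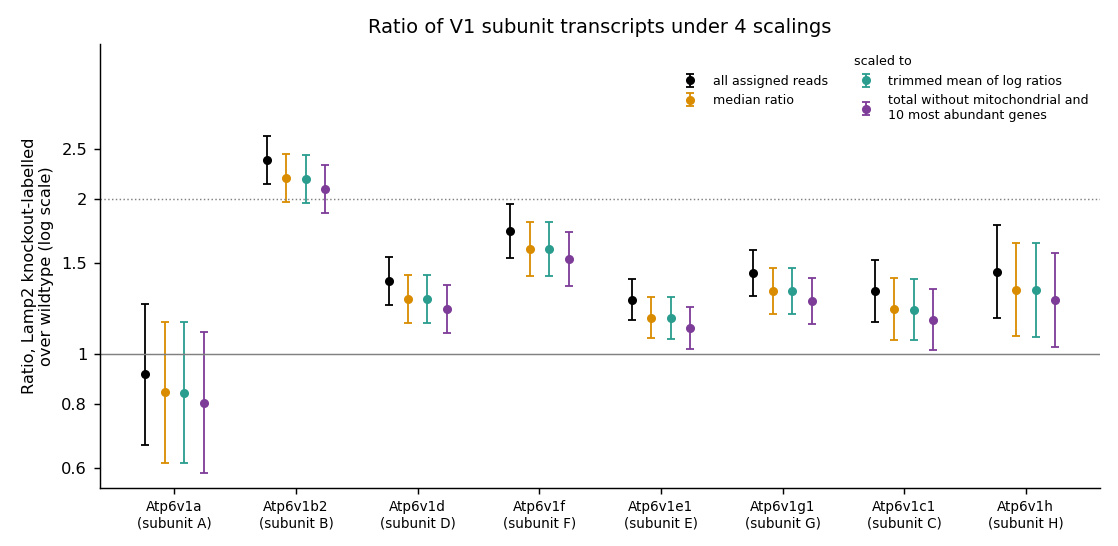
Ratio of each V1 gene, knockout-labelled over wildtype (log axis), scaled to all assigned reads (black) or by 3 other scalings (colours); whiskers are exact binomial 95% counting intervals, the solid line marks a ratio of 1 and the dotted line a ratio of 2. The intervals of all members except Atp6v1a lie above 1 under each scaling, and the point of Atp6v1b2 lies above 2. Over all measured genes the interval lay above 1 for 35.0% with all assigned reads and for 25.7%, 25.5% and 21.1% under the others.

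Set against the whole transcriptome, 1 of 8 members was at least 2-fold higher by the rule of size, a log2 ratio of RPM plus 1 of at least 1, which 3.35% of measured genes met. None of the 8 was at least 2-fold lower, which held for 2.37% of measured genes. Members at least 1.5-fold higher numbered 2, Atp6v1b2 and Atp6v1f, against 12.8% of measured genes. Members with a log2 ratio above 0 numbered 7 of 8, against 61.2% of measured genes. The counting interval lay above 1 for the same 7 members, against 35.0% of measured genes, many of which have fewer reads and wider intervals. The median log2 ratio of the members was 0.49, beside 0.11 over all measured genes.

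The other scalings turned the balance of all genes, with 44.1%, 43.7% and 37.0% of the 2-fold calls on the higher side against 58.6% on the RPM scale, but Atp6v1b2 stayed the 1 member at least 2-fold higher, against 2.44%, 2.43% and 2.15% of measured genes, and 0 members were at least 2-fold lower, against 3.10%, 3.14% and 3.66%. The counting interval lay above 1 for the same 7 members each time, against 25.7%, 25.5% and 21.1% of measured genes. Under these scalings 49.5%, 49.4% and 43.3% of measured genes had a log2 ratio above 0, while 7 of 8 members did each time, and the members' median was 0.37, 0.37 and 0.31. The smallest interval bound among the 7 higher members came close to 1 under the last scaling, where Atp6v1c1 had a ratio of 1.17 (1.02 to 1.34) and Atp6v1e1 a ratio of 1.12 (1.02 to 1.23). The summed V1 ratio was 1.41 (1.35 to 1.47), 1.41 (1.35 to 1.47) and 1.35 (1.29 to 1.41) under the 3 scalings. Without Atp6v1b2 the other 7 members summed to 504 RPM in the knockout-labelled library and 361 RPM in the wildtype, a ratio of 1.40 (1.33 to 1.46).

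**Figure D3:**
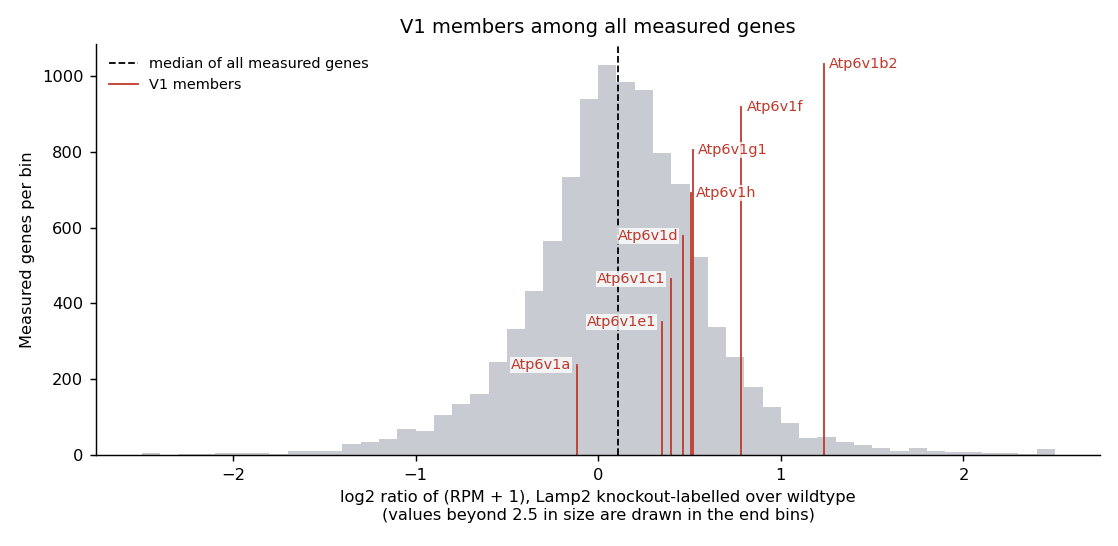
Distribution of the log2 ratio of RPM plus 1, knockout-labelled over wildtype, over 10209 measured genes (grey, genes per bin of 0.1), with the V1 members as red lines whose heights only separate the names and the median of all measured genes, 0.11, as a dashed line. All members except Atp6v1a lie right of that median, from percentile 71.9 (Atp6v1e1) to percentile 98.1 (Atp6v1b2).

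Levels per length of exon, which allow a rough comparison of genes with each other, spread widely within the sector. The lengths are those of GENCODE M21 exons, and the annotation used for counting is not given. The length of any member may therefore differ from that of its counted row, and the intervals below do not cover this. In the knockout-labelled library, Atp6v1g1 and Atp6v1e1 led at 93.2 and 93.1 RPM per kb of exon, and their intervals overlapped each other and that of Atp6v1f, at 82.2 RPM per kb (76.5 to 88.3). Below these stood Atp6v1b2 at 48.1, Atp6v1c1 at 27.8, Atp6v1d at 26.0 and Atp6v1h at 12.2 RPM per kb. The order of Atp6v1c1 and Atp6v1d was within counting error. Atp6v1a came last at 2.20 RPM per kb (1.75 to 2.73), apart from all others.

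In the wildtype library, Atp6v1e1 was highest at 73.0 RPM per kb of exon, then Atp6v1g1 at 64.8 and Atp6v1f at 47.4. Atp6v1c1, Atp6v1b2 and Atp6v1d lay side by side at 21.01, 20.2 and 18.8 RPM per kb, with overlapping counting intervals from each to the next. Atp6v1h stood at 8.41 and Atp6v1a again last at 2.41 RPM per kb (1.93 to 2.97). The place of Atp6v1b2 therefore differed between the libraries: it stood among C1 and D in the wildtype and clear above both in the knockout-labelled library. The annotation used for counting is not given, so whether the Atp6v1a row counts its whole transcript could not be checked; if it does not, its values per kb understate its level. With that doubt, the highest member exceeded the lowest 42.4-fold in the knockout-labelled library and 30.3-fold in the wildtype, and without Atp6v1a the span was 7.67-fold and 8.68-fold. With the longest coding transcript as the length, the order changed only by Atp6v1f moving to the top of the knockout-labelled library, at 108 RPM per kb; this alternative was added after the data were seen.

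The make-up of the V1 reads, which does not depend on the library total, shifted toward Atp6v1b2. This gene gave 21.2% of the V1 reads in the knockout-labelled library (20.2 to 22.3) and 13.7% in the wildtype (12.6 to 14.9). Its reads relative to those of the other 7 members were 1.70 times as many in the knockout-labelled library as in the wildtype (1.52 to 1.91). The share of Atp6v1f was 13.7% against 12.1%, and its ratio to the rest differed by 1.15 times (1.02 to 1.31). These 2 genes had a larger share in the knockout-labelled library, and the other 6 had a smaller one.

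The largest loss of share in points was that of Atp6v1e1, at 19.1% of V1 reads in the knockout-labelled library (18.1 to 20.1) and 22.9% in the wildtype (21.5 to 24.4). Atp6v1a gave 1.46% against 2.45%, and its ratio to the rest was 0.591 (0.435 to 0.802). Atp6v1c1 and Atp6v1d had ratios to the rest of 0.852 (0.739 to 0.981) and 0.889 (0.792 to 0.998). For Atp6v1g1 and Atp6v1h the ratio to the rest, at 0.926 (0.828 to 1.04) and 0.940 (0.763 to 1.16), did not differ from 1 beyond counting error. Shares add up to a whole, so a larger share of Atp6v1b2 lowers the others without a change in their own reads.

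**Figure D4:**
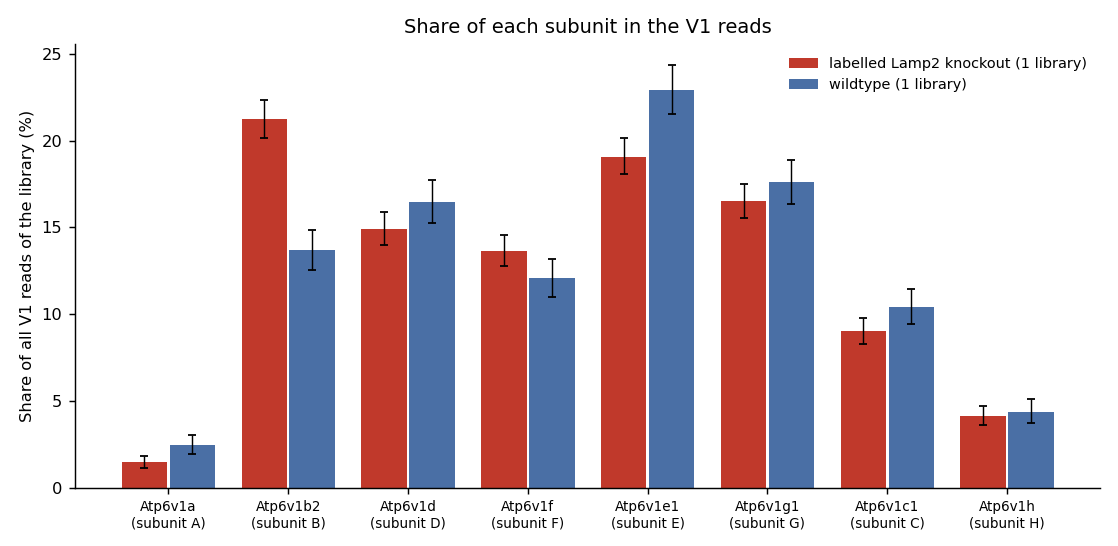
Share of each gene in the V1 reads of its library (percent), in the knockout-labelled library (red, 5618 reads in all) and the wildtype library (blue, 3515 reads in all); whiskers are exact binomial 95% counting intervals. Atp6v1b2 takes 21.2% against 13.7%, and Atp6v1e1 is the largest in the wildtype at 22.9%.

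The start regions of the members were read for short known motifs. RefSeq promoter windows (GRCm38.p6, 250 bases before to 50 bases after the annotated start) were at hand for 4 of the 8 members, Atp6v1a, Atp6v1d, Atp6v1e1 and Atp6v1f, and not for Atp6v1b2, Atp6v1c1, Atp6v1g1 and Atp6v1h. They were searched on both strands for the E-box CACGTG, the core of the CLEAR element that TFEB, a regulator of lysosomal genes, is known to bind, and for its longer form TCACGTGA, which contains it. Atp6v1a is shown as the only window of the 4 with an E-box, and Atp6v1f as the member with the largest ratio among the 4. Whether an E-box goes with a gene's ratio was not tested. The Atp6v1a window is chr16:44139210-44139509 on the minus strand and the Atp6v1f window is chr6:29467533-29467832 on the plus strand. Both read 5′ to 3′, and capitals mark CACGTG.
Atp6v1a: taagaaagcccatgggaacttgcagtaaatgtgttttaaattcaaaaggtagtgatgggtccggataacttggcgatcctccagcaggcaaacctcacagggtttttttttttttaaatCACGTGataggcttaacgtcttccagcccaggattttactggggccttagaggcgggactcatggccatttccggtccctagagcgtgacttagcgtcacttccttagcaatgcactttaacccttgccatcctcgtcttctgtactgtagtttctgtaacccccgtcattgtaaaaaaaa
Atp6v1f: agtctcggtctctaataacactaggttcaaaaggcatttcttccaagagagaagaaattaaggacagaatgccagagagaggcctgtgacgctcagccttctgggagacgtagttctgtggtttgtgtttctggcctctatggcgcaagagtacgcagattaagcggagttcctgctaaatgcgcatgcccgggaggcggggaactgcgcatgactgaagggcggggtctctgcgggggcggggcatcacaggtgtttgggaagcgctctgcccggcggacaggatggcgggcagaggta

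In Atp6v1a the E-box begins 131 bases before the annotated start and sits within TCACGTGA. Of all 32851 windows in the table, 7.15% hold CACGTG and 0.974% hold TCACGTGA, and of the 9209 windows of measured genes 10.3% and 2.05% do. The other 3 windows held no CACGTG. The GC box GGGCGG was present in the windows of Atp6v1d, Atp6v1e1 and Atp6v1f, with 2 matches in Atp6v1f, and absent from that of Atp6v1a; 35.7% of all windows and 64.7% of those of measured genes hold it. TATAAA was found only in Atp6v1e1 among the 4, in overlapping matches 32 and 30 bases before the start, where 13.6% of all windows and 7.10% of those of measured genes hold it. CCAAT was found once in the same gene, against 37.4% of all windows and 37.0% of those of measured genes. GC content was 45.3% for Atp6v1a, 59.7% for Atp6v1d, 51.7% for Atp6v1e1 and 56.3% for Atp6v1f, with a median of 61.3% over windows of measured genes. The 5′ end of the deposited row lies on the RefSeq start for Atp6v1d and Atp6v1f, 13 bases downstream of it for Atp6v1e1 and 240 bases downstream for Atp6v1a. A match of letters is a description of the window and not of binding.

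The remaining V1 isoform genes, which serve particular tissues, were at or near the floor of detection. Atp6v1b1, the B isoform of kidney acid-secreting cells, Atp6v1e2 of testis and Atp6v1g3 of kidney had 0 reads in both libraries, which allows up to 0.342 RPM in the knockout-labelled library and 0.357 RPM in the wildtype at a limit of 3 reads. Atp6v1c2, overlapped by Pdia6 on the opposite strand, had 3 reads in each library. Atp6v1g2, the G isoform of neurons, had 16 reads in the knockout-labelled library and 6 in the wildtype, a ratio of 2.56 (0.950 to 7.98) that included 1, and it is overlapped on the opposite strand by Nfkbil1 at 143 against 75 reads. Adding all 5 to the members left the summed V1 ratio at 1.53.

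Genes of the membrane sector were also mostly higher in the knockout-labelled library. Of 10 listed V0 genes, 9 were in the table and 7 were measured, and all 7 lay above 0 on the log2 scale, against 61.2% of measured genes; their median was 0.56, beside 0.11 over all measured genes. By log2 ratio of RPM plus 1 the highest was Atp6v0a1, an isoform of the V0 a subunit, at 119 against 68.5 RPM. Without the pseudocount Tcirg1, another a isoform, had the larger ratio, 1.78 (1.20 to 2.67) against 1.74 (1.57 to 1.93), on 76 against 41 reads. The lowest was Atp6v0a2 at 11.2 against 10.1 RPM, a ratio of 1.11 that falls to 0.973 under the scaling without mitochondrial rows and the most abundant genes. There were 1.964 V1 reads per V0 read in the knockout-labelled library and 1.999 in the wildtype, a ratio of 0.982 (0.913 to 1.06), which included 1 with all 8 members. Leaving out Atp6v1b2, the V1 member with the highest ratio, while keeping the V0 list whole could only lower this value. It was then 0.896 (0.831 to 0.966), at 1.55 V1 reads per V0 read in the knockout-labelled library against 1.73 in the wildtype. The V0 list kept Atp6v0a1, at 1046 against 576 reads, so no conclusion about fewer V1 reads per V0 read is drawn.

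Genes that build or accompany the pump showed smaller medians than either sector. The accessory subunit genes Atp6ap2 and Atp6ap1 had ratios of 1.40 (1.02 to 1.92) and 1.07 (0.973 to 1.18), the second below 1 at 0.943 under the last scaling. Of 8 measured assembly factors, 5 lay above 0 on the log2 scale, near the share of 61.2% over all measured genes. Under the last scaling 3 of those 5 fell below 0, and the median was 0.05 before it. They ran from Dmxl2, a subunit of the complex that reattaches V1 to V0, at 44.9 against 28.8 RPM (ratio 1.56, 1.33 to 1.84) to Tmem199, an assembly factor of the endoplasmic reticulum and Golgi, at 3.08 against 5.83 RPM (ratio 0.528, 0.317 to 0.862). Of the TLDc domain genes, whose proteins interact with V1, the 2 measured ones were Oxr1 at a ratio of 1.02, or 0.897 under the last scaling, and Tbc1d24 at 0.882. Among 9 measured genes of the Ragulator, Rag GTPases and Slc38a9, which join the pump to mTORC1 on the lysosome, 7 were above 0, against the same 61.2%, and the median was 0.36, with Rragc highest at 1.52 (1.29 to 1.79) and Slc38a9 lowest at 0.571 (0.398 to 0.811). None of these genes was at least 2-fold apart by the rule of size, where 3.35% of measured genes were higher and 2.37% lower. With so few genes that count is near those shares.

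**Figure D5:**
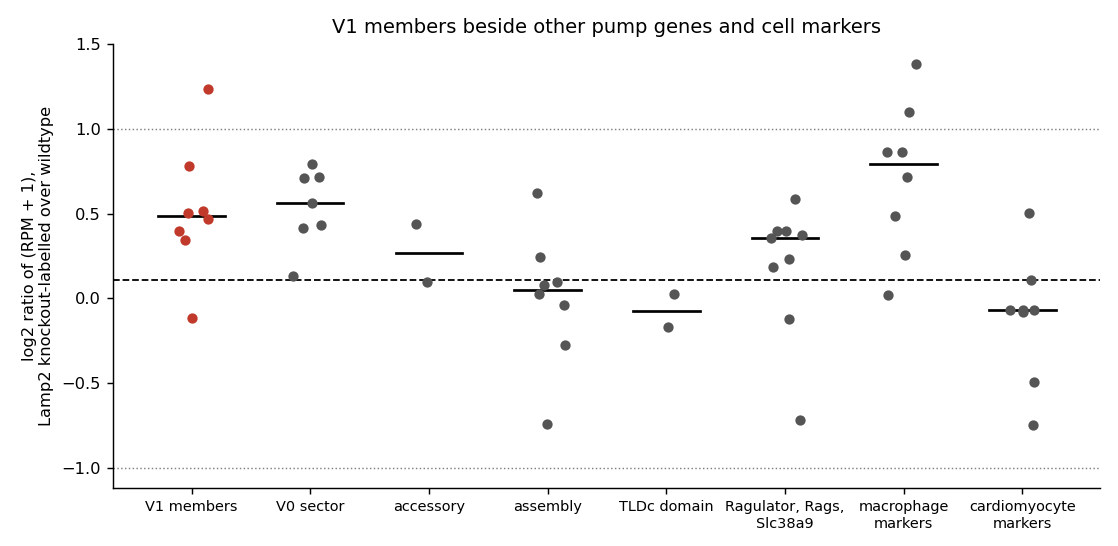
Log2 ratio of RPM plus 1, knockout-labelled over wildtype, for each measured gene of the V1 members (red) and of 7 other lists (grey), with list medians as bars, the median of all measured genes as a dashed line and 2-fold limits as dotted lines; sideways spread only separates points. The V1 and V0 medians stand at 0.49 and 0.56, the macrophage markers at 0.79 and the cardiomyocyte markers at −0.07.

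Markers of macrophages, cells rich in V-ATPase, also differed between the libraries. The 10 macrophage markers summed to 368 RPM in the knockout-labelled library and 196 RPM in the wildtype. All 8 measured markers lay above 0 on the log2 scale, against 61.2% of measured genes, although Mrc1 fell to a ratio of 0.894 under the last scaling. At least 2-fold higher were 2 of them, against 3.35% of measured genes: C1qa at 82.1 against 37.7 RPM and C1qb at 121 against 45.8 RPM. Csf1r and Mrc1 differed less, at ratios of 1.20 and 1.02, and Fcgr1 had 0 reads in the knockout-labelled library and 9 in the wildtype. The 3 neutrophil markers found summed to 11.5 against 0.832 RPM, nearly all from S100a9. The part of these cells in the V1 result was not tested. The 5 genes of acid-secreting cells and osteoclasts summed to 4.67 against 2.73 RPM, with Atp6v0d2 and Atp6v1b1 at 0 reads in both libraries. Cardiomyocyte markers summed to 51346 against 53698 RPM, endothelial markers to 537 against 526 RPM, fibroblast markers to 483 against 509 RPM and smooth muscle markers to 65.2 against 93.0 RPM. These sums hide genes that differed within a list. Most of the fibroblast sum was Dcn, at 393 against 379 RPM. Of the 5 fibroblast markers 1 lay above 0 on the log2 scale, and their median was −0.46. Col1a1, at 6.50 against 28.5 RPM, was the 1 at least 2-fold lower, against 2.37% of measured genes. Endothelial Tie1 and Tek had ratios of 1.42 and 0.626, and cardiomyocyte Ryr2 and Pln 1.42 and 0.595.

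With 2 libraries a gene's pattern is 1 level and 1 ratio, and 163 other measured genes had a ratio inside the interval of Atp6v1b2. Genes with provisional or clone symbols were left out of the search for the nearest profiles. The nearest to Atp6v1b2 over log2 RPM plus 1 in both libraries were Hcn2, a pacemaker channel gene, at 130 against 59.0 RPM (distance 0.08), Fosl2, an AP-1 transcription factor gene, at 141 against 62.2 RPM (distance 0.13), and Alas1, which starts heme synthesis, at 132 against 65.2 RPM (distance 0.19).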

How the data were processed

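Left ventricle RNA of 1 mouse labelled Lamp2 knockout and 1 wildtype mouse was compared, grouped by the genotype labels. The submitters' processing notes list STAR, mm10 and GRCm38. How reads were counted (tool, annotation, strand, reads with several matches) is not given in the sources used here. Per the file headers, the authors deposited read counts per gene, RPM, a fold ratio and a p-value. The deposited RPM equal count over column total times 1000000 within 5e-05. The authors' fold ratio and p-value were not used. Deposited starts count from 0 and are given plus 1.

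The members and gene lists were chosen with earlier results of these data known. All 8 members are named, with the other V1 isoforms, the extremes of each other pump list, cell markers, overlapping rows and the 3 nearest profiles. A gene was measured at 5 RPM or more in the higher library; log2 ratios use a pseudocount of 1 RPM, which understates changes of low genes, and other ratios use none. Ratios carry exact conditional binomial 95% intervals, shares exact binomial (Clopper-Pearson), levels exact Poisson and ratios of ratios log-normal (Woolf) intervals. No molecular identifiers are described, so reads may not be independent molecules and intervals and limits cover counting error only. The trimmed mean left out 30% of ratios and 5% of levels at each end. Exon lengths came from GENCODE M21 basic (GRCm38) and promoters from RefSeq GRCm38.p6. Near-identical transcripts were sought with blastn 2.17.0+. Of 95 list entries, 92 were found, 4 of them under an older symbol. The rule and intervals were tested on simulated Poisson counts. These hold no spread between animals and no duplicate reads, so that test covers counting error only. Alternatives were other pseudocounts, minimums, fold sizes, scalings and gene sets. Python 3.11.15, numpy 2.4.6, pandas 2.3.3, scipy 1.17.1 and matplotlib 3.10.9 were used.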

Additional observations from a re-analysis of the deposited data

How the results depend on the processing

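The member counts (1 at least 2-fold higher, 0 lower, 7 above 0) held with 0.1 or 5 RPM as pseudocount, with 1 or 20 RPM as minimum (20 leaves out Atp6v1a), with no filter and under 3 scalings; at 1.5-fold 2 members were higher and at 3-fold 0. No member's log2 ratio changed sign under these settings. Of 63 such member values, 5 left the counting interval of the main ratio, all when scaled without mitochondrial rows and the 10 most abundant genes. They were the lower values of Atp6v1b2, Atp6v1d, Atp6v1e1, Atp6v1f and Atp6v1g1, with Atp6v1e1 going from 0.347 to 0.165. Counts over all measured genes, 342 higher and 242 lower, became 194 and 75 with a pseudocount of 5 RPM, 220 and 92 with a minimum of 20 RPM, 1307 and 745 at 1.5-fold, 87 and 46 at 3-fold, and 220 and 375 when scaled without mitochondrial rows and the 10 most abundant genes; those lower were 397 with a minimum of 1 RPM and with no filter. The summed V1 ratio of 1.53 became 1.41 with the median ratio, 1.41 with the trimmed mean, 1.35 without mitochondrial and abundant rows, 1.40 without Atp6v1b2 (also the only member overlapped on the opposite strand) and 1.61 without Atp6v1e1. The V1 to V0 ratio of 0.982 became 0.896 (0.831 to 0.966) without Atp6v1b2 and with the V0 list kept whole, an exclusion that could only lower it. Adding pseudogene rows was not run, since no row is named as one of a member. No paired analysis was possible because each group has 1 library. Depth limits Atp6v1a most, at 82 and 86 reads.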

Other observations

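The nearest measured gene on each side of each member was also read, a choice made after the data were seen. Genes with provisional or clone symbols and rows that overlap the member were left out. Of these 16 neighbours, 0 were at least 2-fold apart in either direction, against 3.35% of measured genes higher and 2.37% lower. With so few genes that count is near those shares. A log2 ratio above 0 was seen in 8 of the 16, against 61.2% of measured genes. The neighbours' median log2 ratio was 0.03, beside 0.11 over all measured genes and 0.49 for the members. Flnc, which encodes the muscle actin cross-linker filamin C, ends 5895 bp before Atp6v1f and was at 649 RPM in the knockout-labelled library and 374 RPM in the wildtype, a ratio of 1.73 (1.66 to 1.81), the same to 3 digits as that of Atp6v1f. Eif2s1, a translation initiation factor gene 434 bp from Atp6v1d, had a ratio of 1.43 (1.23 to 1.67) beside 1.39 for that member, and Naa50, an acetyltransferase gene 790 bp from Atp6v1a, had a ratio of 0.980 (0.869 to 1.10) beside 0.914. The neighbours of Atp6v1b2 were farther away: Lpl, the gene of lipoprotein lipase, stood at a ratio of 1.29 (1.28 to 1.30) with 11895 against 9229 RPM, and Zfp869 at a ratio of 1.56 (1.10 to 2.23). Cecr2, beside Atp6v1e1, had the lowest ratio of the 16 at 0.562 (0.443 to 0.710), while Atp6v1e1 itself was at 1.27.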
